A study of Mus musculus with 2 samples.

Results

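The genes described here are the WNT ligands, their Frizzled receptors and LRP co-receptors, and the secreted proteins that restrain them. They were taken by symbol from both expression tables: Wnt followed by a number and an optional a or b, Fzd with a number, Sfrp1 to Sfrp5, Dkk1 to Dkk4, and Wif1, Frzb, Lrp5, Lrp6 and Axin2. This gave 42 of the 20211 gene symbols listed, namely 19 ligands, 10 Frizzleds, 2 LRP co-receptors, 10 secreted inhibitors and Axin2. The cells were cultured perivascular cells (PVCs) of the aorta of C57BL/6 mice. RNA was sequenced from 1 library of wild type (WT) cells and 1 library of Kai1 KO cells, labelled as a knockout of the tetraspanin KAI1, which Cd82 encodes. The labels give 10% FBS for both cultures, while the study's methods give a higher share for primary PVCs. The study's methods describe its purchased C57BL/6 mice as adults of either sex, without saying whether these cells came from them. The number of animals pooled and how the knockout allele was made are not given for these cells in the sources used here. The comparison asks how loss of KAI1 is accompanied by other expression of genes that perivascular cells use to signal to the vessel wall.

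WNT proteins are secreted, lipid-modified signals that bind a Frizzled receptor together with a co-receptor. With LRP5 or LRP6 they stabilise beta-catenin, which then acts with TCF/LEF factors on target genes such as Axin2. With ROR or RYK co-receptors they act on cell polarity and movement instead. SFRPs, FRZB and WIF1 bind WNTs outside the cell, and DKK1, DKK2 and DKK4 bind LRP5 and LRP6. In vessels, WNT signalling is known for its part in the retinal vasculature and in smooth muscle growth.

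The targeted gene Cd82 had an RPKM of 12.8 in WT and 2.62 in Kai1 KO, in the direction of the labels, with RNA still counted in the knockout. RPKM divides the reads of a gene by its length and by the mapped reads, so it can be compared between genes. Changes are given as the log2 ratio of Kai1 KO to WT after 0.1 RPKM was added to both values, which understates the change of low genes. Read numbers are estimates from the steps of low RPKM values, which corresponded to 29450000 WT reads and 26650000 Kai1 KO reads. The 95% intervals based on them hold counting error alone, and with 1 library per genotype no difference has a replicate check. For single genes the intervals belong to the ratio from reads without the 0.1 RPKM, so they are not centred on the log2 ratio given. All 4 Y-linked genes looked up were above 0 in WT and listed at 0 in Kai1 KO, so that genotype and the sex of the cells cannot be told apart.

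Marker genes of perivascular cells were present in part, and several differed between the libraries. Of 13 mural cell markers, 7 averaged 1 RPKM or more, and 4 of these were more than 2-fold lower in the Kai1 KO library, where 7.81% of all genes at this level were lower and 7.98% higher. All 7 were lower in Kai1 KO. The summed RPKM of the 13 was 4646 in WT and 2978 in Kai1 KO, Acta2 making up most of it. Among those under 1 RPKM on average, Rgs5 was at 0.0630 in WT and 0.233 in Kai1 KO, and Kcnj8 at 0 and 0.791. Abcc9 was at 0.0411 and 0.0303, and Des, Anpep and Notch3 were lower in Kai1 KO too. Fibroblast markers had sums of 3121 and 1497, with Lum listed at 0 in Kai1 KO, and 5 of the 8 that averaged 1 RPKM or more were over 2-fold lower and 1 higher. Macrophage markers had sums of 26.8 and 6.60, most of it Csf1r (11.7 and 2.66) and Tyrobp (10.4 and 2.37). With Lyz2 (3.44 and 1.09) these were the 3 macrophage markers that averaged 1 RPKM or more, and all 3 were over 2-fold lower. Emr1 was listed at 0 in both libraries and Ptprc was at 0.0407 and 0.00697. Endothelial markers had sums of 2.52 and 1.01, with Emcn and Cldn5 listed at 0 in both and a further 7 of 10 listed at 0 in Kai1 KO alone. Epithelial and mesothelial markers had sums of 31.6 and 95, nearly all of it Krt19, and Epcam was listed at 0 in both. Krt19 (29.3 and 91.3) and Upk3b (0.975 and 2.81) alone averaged 1 RPKM or more, and both were over 2-fold higher. Under that level, Cdh1 and Msln were lower in Kai1 KO, Krt8 and Krt18 were listed at 0 there, and Wt1 was at 0 and 0.0259. Adipocyte markers had sums of 10.6 and 4.53, nearly all of it Fabp4, with Adipoq at 0 in both. Schwann cell and neural markers had sums of 57.8 and 73.9, with Sox10 listed at 0 in Kai1 KO. The part of these differences in the results below was not tested, and in bulk RNA fewer cells of a type and less RNA per cell cannot be told apart.

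Of the 42 genes, 18 averaged 1 RPKM or more across the WT and Kai1 KO values, 11 lay from 0.1 to 1, 3 lay above 0 and below 0.1, and 10 were listed at 0 in both. The 10 were Wnt1, Wnt3, Wnt3a, Wnt7b, Wnt8b, Wnt9b, Fzd10, Sfrp5, Dkk1 and Dkk4. PVCs held RNA for part of each family. The plot of both values for each gene shows that the most abundant receptor and inhibitor, Fzd2 and Sfrp1, kept the first place in both libraries.

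**Figure D1:**
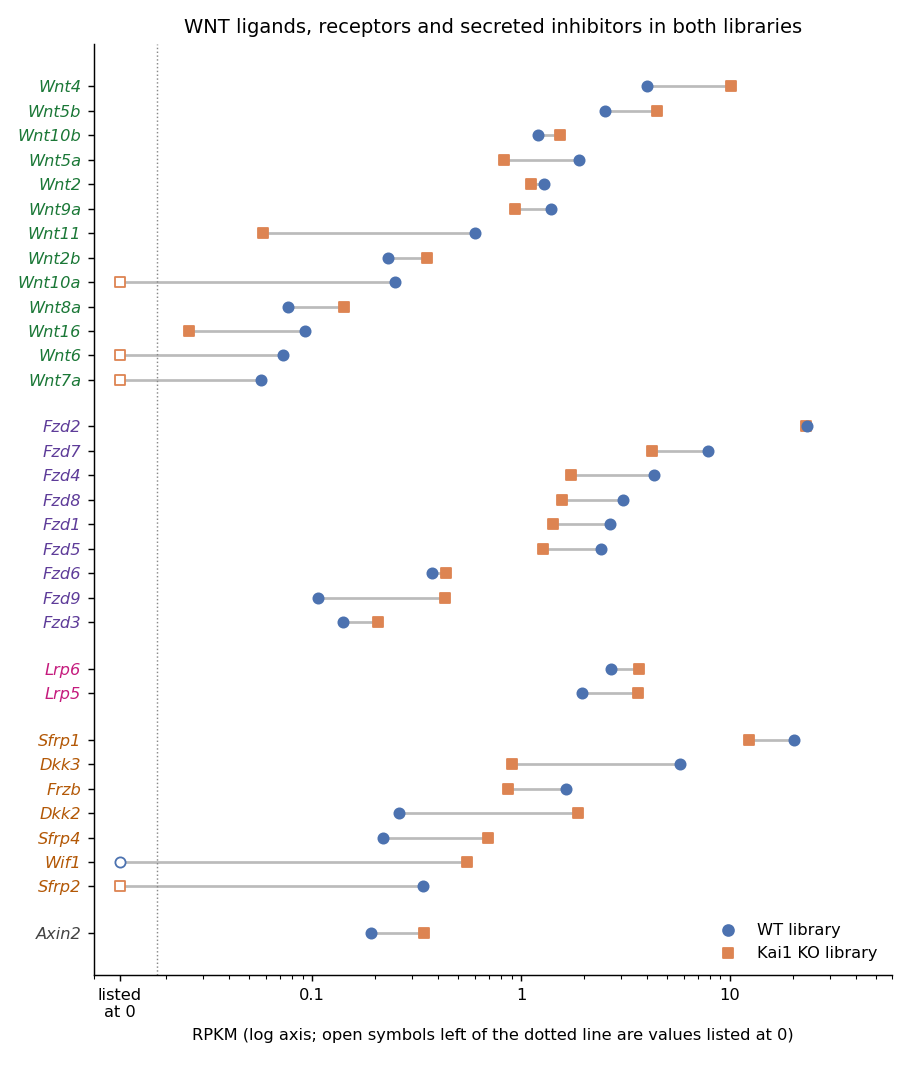
RPKM on a log axis for the 32 genes above 0 in at least 1 library, with circles for the WT library and squares for the Kai1 KO library, and 1 value per library. Open symbols mark values listed at 0. Fzd2 sits at about the same level in both libraries, near 23, while Dkk3, Wnt11 and Dkk2 have the widest gaps among genes above 0 in both.

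Over 2-fold lower in Kai1 KO were 3 of these 18 genes, Wnt5a, Fzd4 and Dkk3, and over 2-fold higher were 2, Wnt4 and Dkk2. Among all 10068 genes at this level, called the genes kept, 7.81% were lower by this measure and 7.98% higher, against 16.7% and 11.1% of the 18. Past 2-fold in either direction were 15.8% of all genes and 27.8% of the 18, the latter being only 5 genes. Of these 5, Wnt5a, Dkk3 and Dkk2 were under 1 RPKM in 1 library and reached the average through the other. The median log2 ratio was -0.62 over the 18 genes and 0.08 over all genes. The balance followed the scaling: relative to Gapdh, where the genes kept had a median of -0.41, 9 of the 18 were over 2-fold lower and 1 higher. Among the genes kept, 18.4% were then lower and 2.76% higher.

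**Figure D2:**
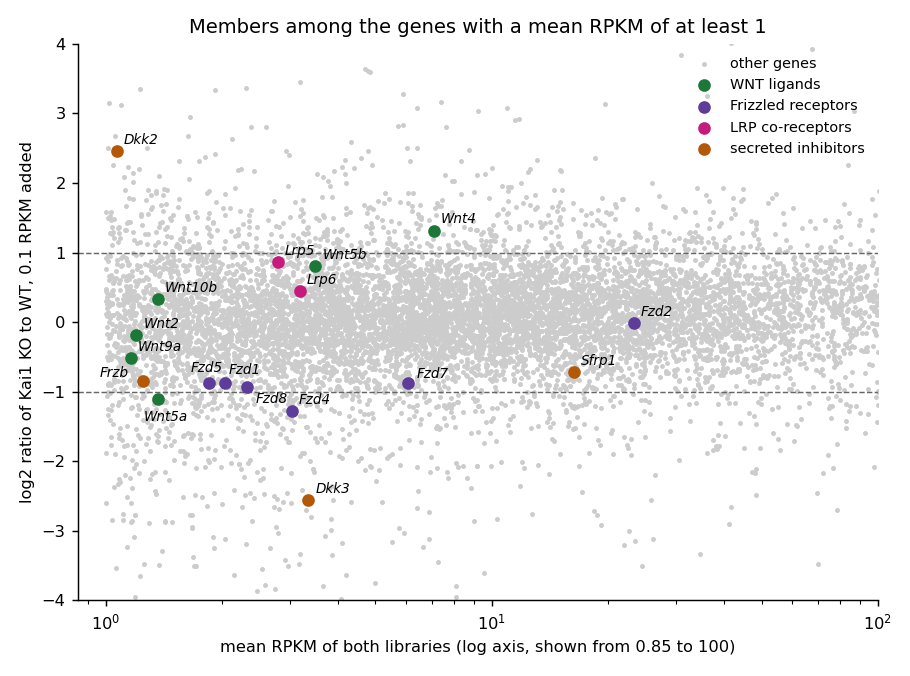
Log2 ratio of Kai1 KO to WT, 0.1 RPKM added, against mean RPKM on a log axis for the genes kept, each point 1 gene. Dashed lines mark a 2-fold difference, and genes past a log2 ratio of 4 in size or a mean RPKM of 100 are outside the frame. Dkk2 and Wnt4 lie above the upper line, and Dkk3, Fzd4 and Wnt5a below the lower one.

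Among the ligands, Wnt4 was the most abundant in both libraries and Wnt5a was lower in the Kai1 KO library. Wnt4 (chr4:136833404-136855641 of NCBI37, plus strand), a WNT known from kidney, gonad and muscle development, had an RPKM of 4.01 in WT and 10.1 in Kai1 KO. This was a 2.53-fold difference, a log2 ratio of 1.32, and 3.93% of all genes kept had a higher ratio. Its values rest on about 472 and 1079 reads, and the ratio from reads had a 95% interval from 1.18 to 1.5. Scaled to Gapdh or to equal sums, the ratio was 0.82 or 0.84, under 2-fold, and with the medians of the genes kept made equal it was 1.23.

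Wnt5a (chr14:29317936-29340633, plus strand), the model ligand of beta-catenin-independent signalling through ROR receptors, had an RPKM of 1.90 in WT and 0.829 in Kai1 KO. The Kai1 KO value was 43.6% of the WT value, a log2 ratio of -1.11, and about 381 and 150 reads gave an interval from -1.48 to -0.92. This interval reaches above -1, so that counting error leaves room for a difference of less than 2-fold. A pseudocount of 1 RPKM left a ratio of -0.67. In the annotation a noncoding gene on the other strand, Gm2670, covers 4.58% of the exon bases of Wnt5a, and whether reads were counted by strand is not given in the sources used here.

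Wnt5b, the close paralogue of Wnt5a, had the opposite sign, with an RPKM of 2.52 in WT and 4.47 in Kai1 KO, a log2 ratio of 0.80 (interval from 0.53 to 1.12). Wnt5b was the second ligand by RPKM in both libraries, while Wnt5a was number 3 in WT and number 6 in Kai1 KO. Wnt10b, known as a ligand that favours bone over fat, had an RPKM of 1.20 and 1.53, and Wnt2, known from lung and vascular development, one of 1.29 and 1.11. The intervals of Wnt10b and Wnt2, from -0.12 to 0.83 and from -0.72 to 0.29, both included 0. Wnt9a, with a role in joint and blood stem cell development, had an RPKM of 1.39 and 0.936, a log2 ratio of -0.52.

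The ligands under 1 RPKM on average included a wide gap. Wnt11, a ligand of cell movement in the embryo, had an RPKM of 0.600 in WT and 0.0578 in Kai1 KO, about 57 and 5 reads. Its ratio from reads was -3.37, with an interval from -5.04 to -2.06, and a pseudogene on the other strand covers 10.0% of its exon bases. Wnt2b had an RPKM of 0.230 and 0.355, Wnt8a one of 0.0769 and 0.142, and Wnt16 one of 0.0922 and 0.0256, with 9 and 2 reads for Wnt16 and an interval of its ratio from -5.28 to 0.25.

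Wnt10a, Wnt6 and Wnt7a were above 0 in the WT library, at an RPKM of 0.249, 0.0723 and 0.0567, and were listed at 0 in the Kai1 KO library. For these genes 3 reads would give an RPKM of 0.0496, 0.0603 and 0.0379 in Kai1 KO, so that the WT values of Wnt6 and Wnt7a lay close to the limit of detection and that of Wnt10a, with 17 reads, did not.

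Summed over the 19 ligands, the RPKM was 13.7 in WT and 19.6 in Kai1 KO, and the gap was that of Wnt4: without it the sums were 9.67 and 9.46. Wnt4 made up 29.3% of the ligand sum in WT and 51.7% in Kai1 KO, and Wnt5b 18.4% and 22.8%. Wnt5a made up 13.9% and 4.23%, and Wnt11 4.39% and 0.295%. These shares do not depend on how the libraries are scaled, whereas the log2 ratio of the sums, 0.52, was 0.02 when scaled to Gapdh.

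Several WNT genes lie in pairs, and in 2 of 4 pairs 1 gene was expressed and its neighbour listed at 0. The annotation of NCBI37 (mm9) placed 4 pairs of these genes within 100 kb of each other. On chromosome 11, Wnt9a (59120430 to 59147054, plus strand) is 16.2 kb from Wnt3a (59061535 to 59104254, minus strand), which was listed at 0 in both libraries. On chromosome 15, Wnt10b (98602184 to 98608581, minus strand) lies 11.7 kb from Wnt1 (98620288 to 98624268, plus strand), also at 0 in both. Wnt6 and Wnt10a, 6.20 kb apart on chromosome 1, were both above 0 in WT and both listed at 0 in Kai1 KO. Wnt9b and Wnt3, 24.3 kb apart on chromosome 11, were listed at 0 in both libraries.

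The 6 Frizzleds that averaged 1 RPKM or more were Fzd2, at about the same RPKM in both libraries, and 5 receptors with lower values in Kai1 KO. Fzd2 (chr11:102465745-102469372, plus strand) had an RPKM of 23.4 in WT and 23.2 in Kai1 KO, a log2 ratio of -0.01 with an interval from reads of -0.10 to 0.07. Its level was above that of 86.7% of all symbols in WT. Fzd4 (chr7:96552876-96558620, plus strand), the receptor for WNTs and for the retinal vessel factor Norrin, had an RPKM of 4.34 and 1.73, a log2 ratio of -1.28. About 445 and 161 reads gave Fzd4 an interval from -1.59 to -1.06, and with 1 RPKM added its ratio was -0.97.

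The other 4 lay just under 2-fold and close to each other. Fzd7 had an RPKM of 7.89 in WT and 4.25 in Kai1 KO, Fzd8 one of 3.08 and 1.57, Fzd1 one of 2.67 and 1.41, and Fzd5 one of 2.42 and 1.27. The WT values were 1.86 to 1.96 times the Kai1 KO values, and the intervals of the 4 genes overlapped. All are known as WNT receptors that can signal with LRP5 and LRP6. They were below 0 on the log2 scale under each scaling tried, and past 2-fold when scaled to Gapdh, with ratios from -1.39 to -1.33, where Fzd2 was at -0.51.

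**Figure D3:**
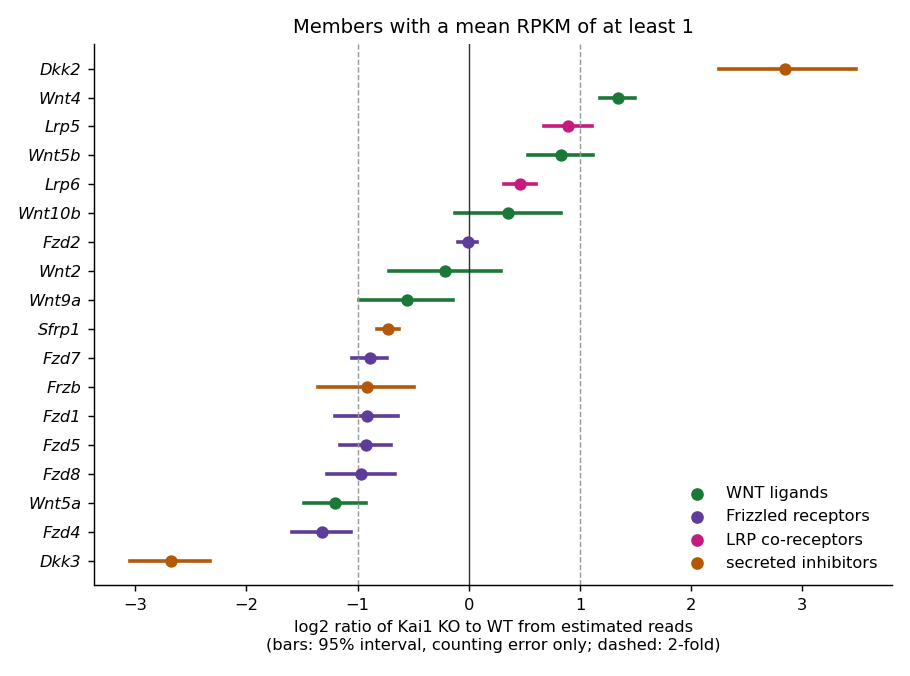
Log2 ratio of Kai1 KO to WT from estimated reads, without a pseudocount, for the 18 WNT, Frizzled, LRP and inhibitor genes kept, with bars for the 95% interval of counting error. In 15 of the 18 genes the bar leaves out 0, and in 4, which are Dkk2, Wnt4, Fzd4 and Dkk3, it lies wholly beyond 2-fold (dashed lines). The bars hold no error between cultures.

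The scarce Frizzleds had higher RPKM values in Kai1 KO. Fzd6, which acts in planar polarity of hair and skin, had an RPKM of 0.374 in WT and 0.435 in Kai1 KO, and Fzd3, which acts in axon guidance, one of 0.140 and 0.206. Both intervals included 0. Fzd9 had an RPKM of 0.106 and 0.431, about 7 and 24 reads, with an interval from 0.66 to 3.38. Of the Frizzled sum, Fzd2 made up 52.7% in WT and 67.3% in Kai1 KO, Fzd7 17.8% and 12.3%, and Fzd4 9.77% and 5.01%. The sum was 44.4 in WT and 34.5 in Kai1 KO. Without Fzd2 it was 21 and 11.3.

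The LRP co-receptors had higher RPKM values in Kai1 KO, where that of Lrp6 turned with the scaling. Lrp5, whose loss is known to disturb retinal vessels and bone, had an RPKM of 1.95 in WT and 3.63 in Kai1 KO, a log2 ratio of 0.86 (interval from 0.68 to 1.11). Lrp6, its paralogue, had an RPKM of 2.69 and 3.68, a log2 ratio of 0.44 that turned to -0.04 when scaled to Gapdh and to -0.03 at equal sums. Lrp5 kept its sign under these scalings, at 0.38 when scaled to Gapdh. In WT, Lrp6 was the more abundant of the pair, and in Kai1 KO each made up about the same share of their sum, 49.7% for Lrp5 and 50.3% for Lrp6.

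The secreted inhibitors held both ends of the range of the 18 genes, with Dkk3 lowest in ratio and Dkk2 highest. Dkk3 (chr7:119259533-119302571, minus strand), a divergent DKK that is not known to bind LRP5 or LRP6, had an RPKM of 5.79 in WT and 0.901 in Kai1 KO. The WT value was 6.42 times higher, a log2 ratio of -2.56, and 1.34% of all genes kept had a lower ratio. About 538 and 76 reads gave a ratio from reads of -2.68, with an interval from -3.05 to -2.33. Dkk2 (chr3:131748256-131843257, plus strand), which binds LRP5 and LRP6, had an RPKM of 0.260 in WT and 1.88 in Kai1 KO, 7.22 times higher. Its log2 ratio was 2.46, and 0.507% of all genes kept had a higher ratio. From about 27 and 175 reads the ratio was 2.84, with an interval from 2.25 to 3.48. Because the WT value was low, the ratio of Dkk2 was 1.19 with 1 RPKM added and 2.81 with 0.01. Both genes stayed past 2-fold under each pseudocount and scaling tried.

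Sfrp1 (chr8:24521974-24560104, plus strand), which binds WNTs through a domain like that of Frizzleds, was the most abundant inhibitor, with an RPKM of 20.3 in WT and 12.3 in Kai1 KO. Its log2 ratio was -0.72 (interval from -0.82 to -0.63) and was -1.22 when scaled to Gapdh. Frzb, the SFRP family member known from cartilage, had an RPKM of 1.64 and 0.867, a log2 ratio of -0.85. The family members with little RNA went both ways. Sfrp4 had an RPKM of 0.217 in WT and 0.697 in Kai1 KO (about 25 and 72 reads), with an interval from 1 to 2.39. Sfrp2 had an RPKM of 0.338 in WT, about 18 reads, and was listed at 0 in Kai1 KO, where 3 reads would give an RPKM of 0.0624. A noncoding gene on the other strand covers 16.1% of the exon bases of Sfrp2. Wif1, which binds WNTs through a domain of its own, was the only 1 of the 42 listed at 0 in WT and above 0 in Kai1 KO, at an RPKM of 0.550 or about 31 reads.

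The inhibitor sum was 28.6 in WT and 17.2 in Kai1 KO, a log2 ratio of -0.73 (interval from -0.82 to -0.65). Sfrp1 made up 71.2% of it in WT and 71.5% in Kai1 KO. The second place changed hands, with Dkk3 at 20.2% and 5.24%, and Dkk2 at 0.910% and 10.9%. The sum of ligand RPKM was 0.479 times the sum of inhibitor RPKM in WT and 1.14 times in Kai1 KO. This log2 change of 1.25 had an interval of counting error from 1.11 to 1.39 and does not depend on the scaling of the libraries. It does depend on which genes are summed: the inhibitor sum includes Dkk3, which is not known to bind LRP5 or LRP6. The ligand sum without Wnt4 had a log2 ratio of -0.03 (interval from -0.19 to 0.12).

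**Figure D4:**
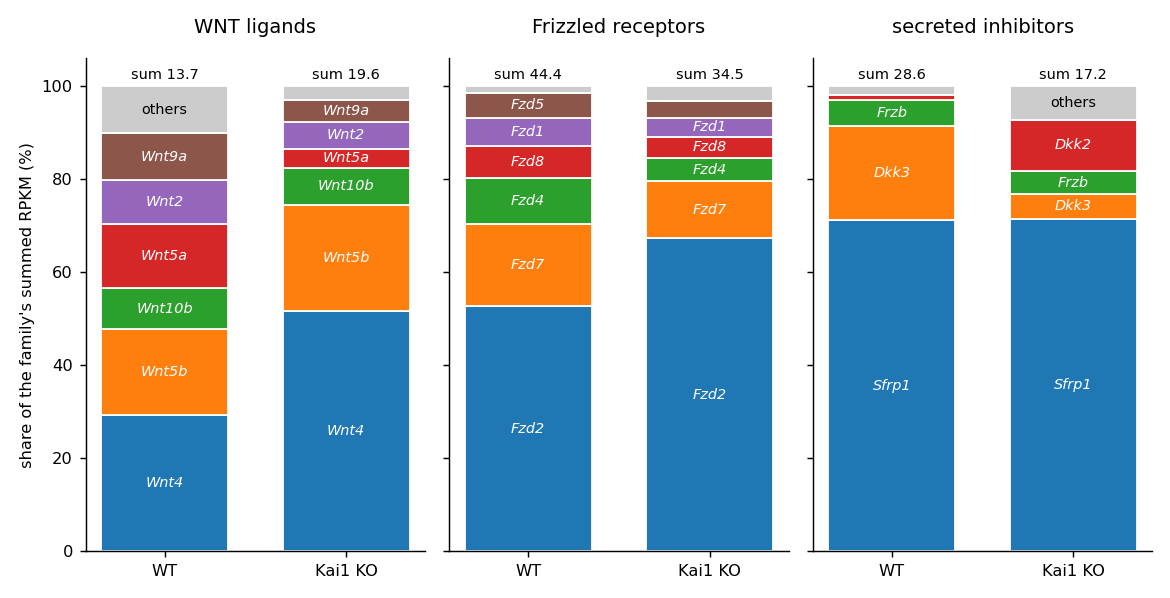
Share of each gene in the summed RPKM of the ligands, the Frizzleds and the secreted inhibitors, in percent, for the WT and the Kai1 KO library. The summed RPKM stands above each bar, and grey holds genes under 5% in both libraries. Wnt4 grows from 29.3% to 51.7% of the ligands, and Dkk2 takes the place of Dkk3 as the second inhibitor.

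Axin2, a scaffold of the complex that degrades beta-catenin and a widely used readout of the beta-catenin pathway, was low in both libraries. It had an RPKM of 0.191 in WT and 0.341 in Kai1 KO, about 23 and 37 reads, with an interval from 0.04 to 1.65. An antisense transcript covers 3.80% of its exon bases. At these levels a gap of this size rests on few reads.

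Among the other genes of the pathway, those past 2-fold were 5 receptors and polarity proteins, the secreted Rspo3 and the target Wisp1. Of 71 further pathway genes, 45 averaged 1 RPKM or more. Of these 45, 5 (11.1%) were more than 2-fold lower and 2 (4.44%) higher, next to 7.81% and 7.98% of all genes. Rspo3, Prickle1 and Ror1, among those past 2-fold, were under 1 RPKM in 1 library and reached the average through the other. None of the 16 dishevelled and destruction complex genes kept, the 9 TCF/LEF factors and cofactors kept, or the 4 secretion genes kept was past 2-fold as deposited. Scaled to Gapdh or to equal sums, Gsk3b, Csnk1e, Tcf7l1 and Tcf7l2 were over 2-fold lower. Ctnnb1, beta-catenin itself, had an RPKM of 87.8 in WT and 96.0 in Kai1 KO. The largest ratios of the destruction complex list were those of the kinase Gsk3b, at -0.65, and of the beta-catenin inhibitor Ctnnbip1, at 0.63. Among the TCF/LEF factors, Tcf7l1 had an RPKM of 17.7 and 11.4 and Tcf7l2 one of 6.96 and 4.73, while the corepressor Aes was the most abundant of that list, at 307 and 408. Wls, which carries WNTs to the cell surface, had an RPKM of 47.7 and 35.0, and Porcn, which attaches their lipid, one of 4.29 and 5.65.

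Past 2-fold were 5 of only 7 other receptors and polarity proteins kept, 3 lower and 2 higher. Among all genes kept, 15.8% were past 2-fold in either direction. Of the 5, Ror1 and Prickle1 were under 1 RPKM in 1 library and reached the average through the other. Ror1, a receptor for Wnt5a, had an RPKM of 0.970 in WT and 3.24 in Kai1 KO, a log2 ratio of 1.64. Ror2, named after its value was seen, had an RPKM of 1.21 and 2.56, a log2 ratio of 1.02. It was under 2-fold with 1 RPKM added and under every other scaling tried. The interval of its ratio from reads, from 0.77 to 1.39, reached below 2-fold. Ryk was at 21 and 21.4. Lower in Kai1 KO were the polarity protein Prickle1, with an RPKM of 1.79 and 0.212 and thus over 1 in WT alone, the heparan sulfate proteoglycan Gpc4, with 57.4 and 17.7, and the DKK receptor Kremen1, with 4.52 and 2.07. With 1 RPKM added Kremen1 was under 2-fold.

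Among the R-spondins, which strengthen WNT signals by sparing Frizzleds from degradation, Rspo3 had an RPKM of 1.83 in WT and 0.273 in Kai1 KO, about 118 and 16 reads. Rspo2 had an RPKM of 2.62 and 2.29, and their receptor Lgr4 one of 1.94 and 0.993. Of 6 target genes kept, Wisp1 was more than 2-fold lower, with an RPKM of 20.1 and 8.08. The others were within 2-fold: Ccnd1 had an RPKM of 112 and 128, Myc one of 15.6 and 22.0, Cd44 one of 35.7 and 24.3, and Nkd2, a feedback inhibitor, one of 4.22 and 4.99.

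**Figure D5:**
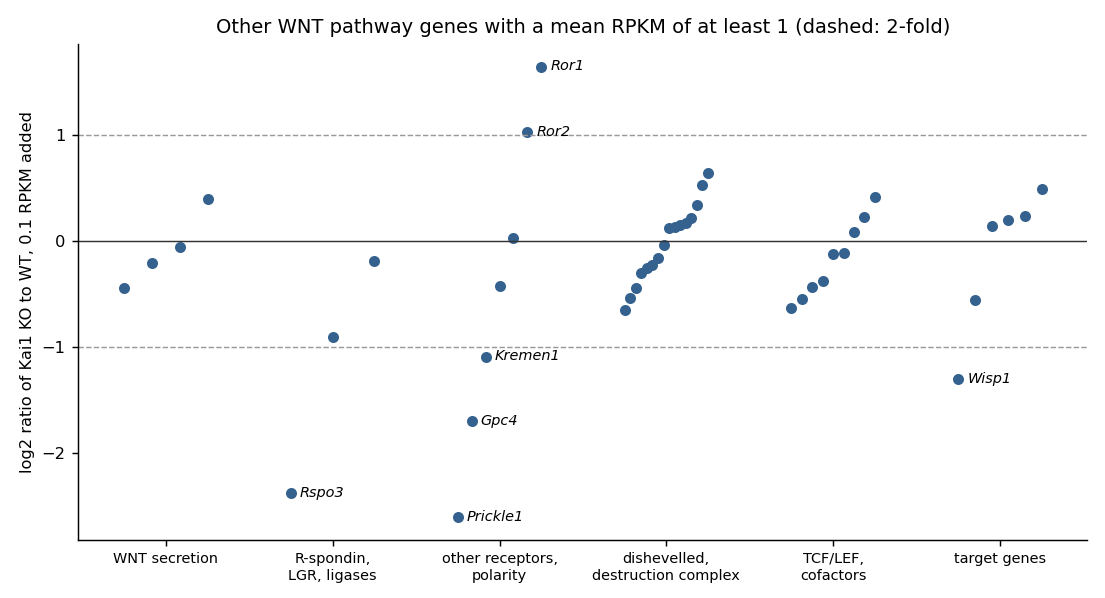
Log2 ratio of Kai1 KO to WT, 0.1 RPKM added, for the other WNT pathway genes kept, each point 1 gene, grouped by role and ordered by ratio within a group. Genes past 2-fold (dashed lines) are named: 5 lie in the group of other receptors and polarity proteins, Rspo3 among the R-spondins and Wisp1 among the targets.

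TCF/LEF factors recognise a short DNA motif, and its letters were looked up at the start sites of these genes, since ligands and inhibitors can themselves be targets of the pathway. RefSeq promoter windows, from 250 bases before to 50 after a start site in GRCm38.p6, were found for 28 of the 42 genes (31 windows). The letters ATCAAAG, on either strand, stood in 2 of 31 windows, which is 6.45%, against 3.73% of all 32851 windows. The shorter TCAAAG, contained in the former, stood in 5 of 31 (16.1%), against 16.0% of all windows, which is about the same share. The matches to the longer motif are printed in the direction of the gene. Of those to the shorter one alone, only that of Fzd1 is printed, picked as a Frizzled lower in Kai1 KO. The windows of Frzb and of Dkk1, which was listed at 0 in both libraries, held the shorter one too. Capitals mark the motif.
Wnt11: gacgtgggcggATCAAAGcgacggtccgcg
Wnt5b: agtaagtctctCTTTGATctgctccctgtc
Fzd1: cgcagcacTCAAAGtagcagtctgtgacca

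Each stretch had 1 exact match on its chromosome of NCBI37, the build of the files. That of Wnt11, the ligand with 57 and 5 reads, was at chr7:105983560-105983589, plus strand, 33 bases before the annotated gene. That of Wnt5b was at chr6:119399457-119399486, minus strand, between exons of the annotated gene and before an alternative start site. That of Fzd1 was at chr5:4758437-4758466, minus strand, upstream of the gene. The windows of Wnt4, Fzd4 and Dkk2, which were past 2-fold, and of Axin2 held neither motif. Wnt5a and Dkk3, also past 2-fold, had no window and were not looked up. A match is a string of letters and was not tested for binding.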

How the data were processed

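RNA sequencing values of 1 WT and 1 Kai1 KO library were used. The authors aligned the reads to mm9 (NCBI37) with TopHat and Bowtie and deposited 1 RPKM value per RefSeq gene and library, a length- and depth-scaled read count. TopHat2 2.0.9, Bowtie and Cufflinks stand in the submitters' processing notes. Library type and depth are not given in the sources used here. Rows without a symbol (38 of 20462) were left out, and repeated symbols (153) were averaged. None of the genes described was repeated.

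Log2 ratios used log2(RPKM + 0.1). Genes averaging 1 RPKM or more were kept, and more than 2-fold was the call. No p-value was computed, since there is 1 library per genotype. Depth was estimated from single-transcript genes of over 800 bases: with 200 bases taken off each length, 81.4% of 472 low WT values and 81.3% of 294 low Kai1 KO values came within 0.15 of whole reads. The longest GENCODE M1 transcript then gave the approximate reads of each gene. Ratio intervals are exact (Clopper-Pearson, conditional on the sum of both reads), and those of sums use a normal approximation. The depth fit and the 2-fold call were tested on simulated data. These followed the same length model, with changes beyond 2-fold and no variation between cultures, so the test checks the code alone. Alternatives were other pseudocounts, scalings and filters and summed repeats.

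The genes and lists were chosen with earlier results of these data known. Every member may be named; of each other pathway list, up to 4 genes with the largest ratio and the 2 most abundant were named, with exceptions stated. Versions were matplotlib 3.10.9, pandas 2.3.3, numpy 2.4.6 and scipy 1.17.1 under Python 3.11.15.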

Additional observations from a re-analysis of the deposited data

How the results depend on the processing

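No paired analysis was possible because there is a single library of WT and of Kai1 KO, and none could be left out. The log2 ratios of the 18 genes were recomputed under 6 other pseudocounts or scalings, 108 ratios in all. In 69 the shift was smaller than the counting error of the gene, and in 39 it was larger or the sign changed. In 4 the sign changed: Wnt10b went from 0.33 to -0.12 at equal sums and -0.14 scaled to Gapdh, and Lrp6 from 0.44 to -0.03 and -0.04. The share of all genes that was lower and higher was 5.68% and 5.46% with 1 RPKM added, 9.70% and 5.90% with equal upper quartiles, 18.0% and 2.84% at equal sums, 18.4% and 2.76% scaled to Gapdh, 9.29% and 5.96% without the filter, and 5.37% and 7.84% for genes averaging 5 RPKM or more. With the medians equal, these shares were 9.06% and 6.52%. Beside the shares, the count of 3 genes lower was 1 with 1 RPKM added, 4 with the medians equal and 5 with equal upper quartiles. That count was 9 at equal sums and when scaled to Gapdh, 6 without the filter and 0 for genes averaging 5 RPKM or more. The count of 2 genes higher was 1 at equal sums, scaled to Gapdh or for genes averaging 5 RPKM or more, and 5 without the filter. Of the other pathway genes, the 5 lower became 4 with 1 RPKM added, 6 with equal upper quartiles and 11 of 45 at equal sums and scaled to Gapdh. They became 9 without the filter and 2 for genes averaging 5 RPKM or more. The 2 higher became 1 with 1 RPKM added, with the medians or upper quartiles equal, at equal sums and scaled to Gapdh, 4 without the filter and 0 for genes averaging 5 RPKM or more. The median of -0.62 became -1.08 at equal sums, -1.09 scaled to Gapdh and 0 without the filter, where 10 genes listed at 0 in both libraries count as 0. The filters change which genes are counted, from 42 without one to 4 for genes averaging 5 RPKM or more, and the scalings shift all genes alike. Summed repeats changed no count. The scalings of the family sums were chosen after seeing the data: those of ligands went from 0.52 to between 0.02 and 0.44, of Frizzleds from -0.36 to between -0.86 and -0.45, of LRP co-receptors from 0.66 to between 0.16 and 0.57, and of inhibitors from -0.73 to between -1.23 and -0.82. Depth limits genes such as Wnt16, Wnt8a and Axin2, with under 40 reads in each library.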
